A study of Mus musculus with 8 samples.

Results

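AP-1 is a family of transcription factors that bind DNA as pairs, and 10 of its genes were followed here in RAW264.7 cells: Fos, Fosb, Fosl1 and Fosl2 of the FOS branch, Jun, Junb and Jund of the JUN branch, and the related Atf3, Batf and Maff. They were taken from the deposited count table by gene symbol, as a list drawn up with earlier results of these data known, and are 10 of its 42454 genes. Of the 10, 9 had counts and passed the filter on low counts, while Jund had 0 counts in all 8 libraries. RAW264.7 is a mouse macrophage-like cell line that came from a virus-induced tumour. The study crossed a compound with a stimulus in 4 groups of 2 libraries. The group labelled LPS+IFN-γ and Tub B (here LPS_IFNg_TubB) had Tubuloside B, a phenylethanoid glycoside, together with lipopolysaccharide at 10 ng/ml and interferon-γ at 20 ng/ml for 24 h. The group labelled Tub B (TubB) had Tubuloside B, the group labelled LPS+IFN-γ (LPS_IFNg) had the stimulus, and mock had the solvent DMSO. The dose of Tubuloside B, and any time for TubB and mock, were not given in the sources used here. Poly(A)-selected RNA was sequenced without keeping its strand, and counts summed to between 4767894 in LPS_IFNg_TubB replicate 1 and 8413834 in TubB replicate 2. The labels do not say whether replicates were separate cultures, so p-values measure only the spread between these libraries.

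The libraries did not follow their stimulus labels, and this bears on every direction below. Nos2, the inducible nitric oxide synthase, averaged 6792 ± 900 CPM (counts scaled to library size with TMM factors; SD, n = 2) in the libraries labelled LPS_IFNg_TubB and 6363 ± 850.1 CPM in those labelled TubB, against 183 ± 23.2 CPM in those labelled LPS_IFNg and 166 ± 14.6 CPM in those labelled mock. Il6, an inflammatory cytokine, had 568 counts over the libraries labelled LPS_IFNg_TubB and 613 over those labelled TubB, against 0 and 1 over those labelled LPS_IFNg and mock. All 12 stimulus markers were called higher in libraries labelled with Tubuloside B than in their counterparts without it, where 26.2% and 26.3% of all genes were. Some of the 12, such as Il6, Il1b, Socs1, Gbp2 and Gbp5, passed the filter on low counts only through the libraries in which they were high. They therefore had to differ and add nothing to this count. Between libraries that differed by the stimulus label, 0 of 12 were called, and 0% of all genes. Whether labels or table columns were exchanged could not be settled from the sources used here, so a difference by Tubuloside B label may be one of stimulus. Each group is named by its deposited label, and a direction given for a label is a difference between libraries so labelled. Of 10 macrophage markers, 9 had counts, with Mertk at 0, and their summed level was 9620 to 9850 CPM in LPS_IFNg_TubB, 9280 to 9830 in TubB, 7940 to 8200 in LPS_IFNg and 7930 to 7960 in mock. The sum hides moves in both directions, with 6 called higher and 1 lower in each comparison by compound label. Csf1r was lower, at 197 ± 25.3 against 478 ± 24.1 CPM in LPS_IFNg_TubB and LPS_IFNg. In TubB and mock it had 200 ± 22.6 against 461 ± 18.9 CPM. Adgre1, among the higher, had 94.03 ± 8.9 against 13.33 ± 3.49 CPM in LPS_IFNg_TubB and LPS_IFNg. In TubB and mock Adgre1 had 81.35 ± 5.767 against 12.35 ± 1.091 CPM. Of 7 neutrophil markers, 3 had counts, with S100a9, Ly6g, Mpo and Ngp at 0, and their sum was 43.1 to 46.4 CPM in LPS_IFNg_TubB, 37.6 to 57.1 in TubB, 6.46 to 7.24 in LPS_IFNg and 7.36 to 7.54 in mock. Dendritic cell markers, with Flt3 at 0, summed to 40.4 to 54.5 CPM over all libraries, but Xcr1 was higher, at 11.8 ± 1.496 CPM in LPS_IFNg_TubB against 0.170 ± 0.240 CPM in LPS_IFNg and 15.2 ± 8.999 CPM in TubB against 0.430 ± 0.411 CPM in mock. Itgax was lower, at 32.9 ± 0.918 against 41.5 ± 0.690 CPM and 31.6 ± 0.971 against 41.3 ± 2.95 CPM in the same pairs. Xcr1 too passed the filter only through the libraries in which it was high. T and B cell markers summed to at most 0.577 CPM and fibroblast and epithelial markers to at most 2.79 CPM. The part of these shifts in the values below was not tested.

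AP-1 proteins carry a basic region that touches DNA and a leucine zipper through which they pair. JUN proteins can pair with each other or with FOS proteins, whereas FOS proteins need a JUN partner, and the pairs bind the sequence called TRE and, with ATF partners, the related CRE. In macrophages the family lies downstream of the MAP kinases that Toll-like receptors switch on, and several of its genes are immediate early genes whose transcripts appear within minutes and decay fast. BATF and MAFF lack a transactivation domain of their own. BATF pairs with JUN proteins and acts with IRF4 or IRF8, MAFF is a small MAF protein, and ATF3 is known as a feedback repressor of inflammatory genes in macrophages.

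Transcripts of 8 AP-1 genes were higher in the libraries labelled with Tubuloside B than in those without it, with or without the stimulus label, and 1 gene, Fosl2, did not pass the test. Maff and Atf3 differed by the widest margins among the 8 members other than the sparsely counted Fosb, at 12.5-fold and 8.84-fold between LPS_IFNg_TubB and LPS_IFNg and 11.2-fold and 9.14-fold between TubB and mock. Junb, Fos, Fosl1 and Batf differed by 2.04-fold to 3.9-fold across the 2 comparisons, and Jun by 1.35-fold and 1.36-fold. By edgeR's quasi-likelihood test with Benjamini-Hochberg adjustment over all 11081 genes tested, at a threshold of 0.05, 8 of 9 members were called higher and 0 lower in LPS_IFNg_TubB against LPS_IFNg, where 51.2% of all genes were called, 26.2% higher and 25% lower. In TubB against mock, 8 of 9 were called higher and 0 lower, where 51.2% of all genes were called, 26.3% higher and 24.9% lower. The libraries of the groups did not overlap for 9 of 9 members in either comparison, which was so for 75.9% and 76.2% of all genes. The median log2 fold change of the 9 members was 1.91 between LPS_IFNg_TubB and LPS_IFNg and 1.81 between TubB and mock, beside -0.01 over all genes in each. Fosb passed the filter only through the libraries in which it was high, so it had to differ and adds nothing to these counts or medians. Cells are pooled in bulk RNA, so fewer cells that express a gene and less RNA per cell cannot be told apart.

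**Figure D1:**
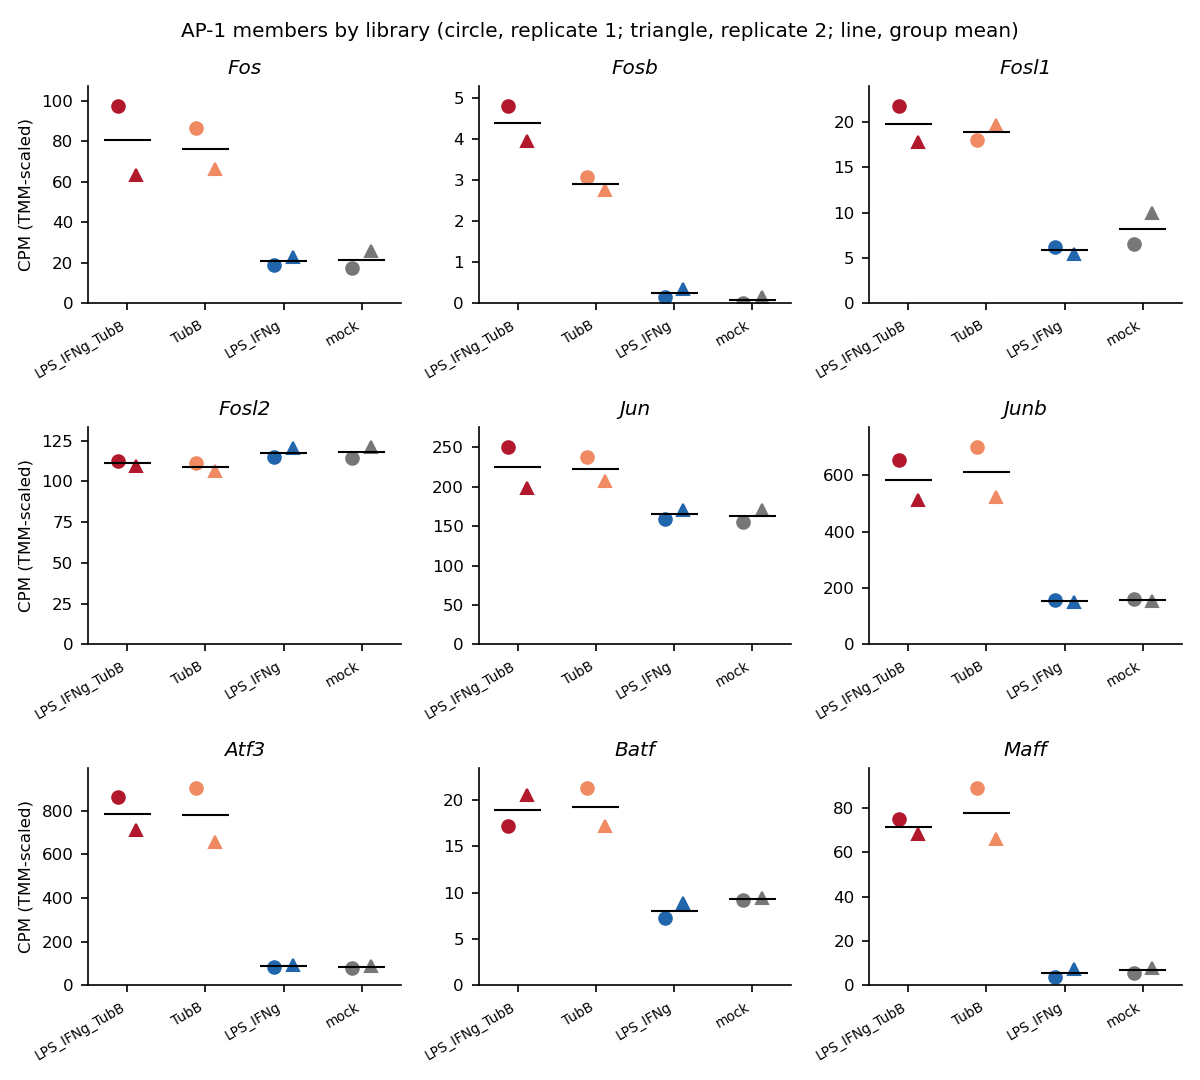
Level of each AP-1 gene in the 8 libraries, in CPM on a linear axis from 0 that differs between genes, with circles for replicate 1, triangles for replicate 2, a line at the group mean and the groups in the order LPS_IFNg_TubB, TubB, LPS_IFNg and mock. Maff had 65.96 to 89.2 CPM in the libraries labelled with Tubuloside B and 3.95 to 7.93 in the others, and Fosl2 had 107 to 113 and 115 to 121 CPM.

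Atf3 (chromosome 1, 191170296 to 191183333, minus strand, GRCm38.p6) had 863 and 710.3 CPM in the libraries labelled LPS_IFNg_TubB, against 84.4 and 93.4 CPM in those labelled LPS_IFNg. It had 905 and 657 CPM in those labelled TubB, against 79.7 and 90.9 CPM in mock. The lowest library with the Tubuloside B label thus stood far above the highest without it. The log2 fold change was 3.14 ± 0.20 (SE; edgeR adjusted p = 4.07e-05) between LPS_IFNg_TubB and LPS_IFNg and 3.19 ± 0.20 (adjusted p = 3.6e-05) between TubB and mock. Replicate 1 was above replicate 2 by 0.28 (log2) in LPS_IFNg_TubB and 0.46 in TubB, a spread small beside the difference between labels.

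Maff (chromosome 15, 79346621 to 79359078, plus strand), which pairs with other small MAF proteins or with CNC factors such as NRF2, had 75.1 and 68.2 CPM in LPS_IFNg_TubB and 3.95 and 7.475 CPM in LPS_IFNg. It had 89.2 and 65.96 CPM in TubB and 5.72 and 7.93 CPM in mock. Its transcript was scarce in every library without the Tubuloside B label and moderate in every library with it. The log2 fold change was 3.65 ± 0.22 (edgeR adjusted p = 3.21e-11) between LPS_IFNg_TubB and LPS_IFNg and 3.49 ± 0.21 (adjusted p = 1.92e-11) between TubB and mock.

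Batf (chromosome 12, 85686720 to 85709087, plus strand) differed less. It had 17.2 and 20.5 CPM in LPS_IFNg_TubB against 7.24 and 8.83 CPM in LPS_IFNg, and 21.3 and 17.2 CPM in TubB against 9.21 and 9.38 CPM in mock. The replicates lay close and the groups with and without the compound label did not overlap. Its log2 fold change was 1.24 ± 0.23 (edgeR adjusted p = 4.69e-05) with the stimulus label and 1.03 ± 0.22 (adjusted p = 0.000216) without it. Its partner gene Irf8, a transcription factor of the myeloid lineage, was also higher, with 281 ± 4.36 CPM in LPS_IFNg_TubB against 34.7 ± 7.26 CPM in LPS_IFNg, and 284 ± 17.4 CPM in TubB against 29.4 ± 1.32 CPM in mock. Irf4, the other partner, was low, at 2.24 ± 1.06, 1.96 ± 0.601, 1.25 ± 0.563 and 1.99 ± 0.0464 CPM in LPS_IFNg_TubB, TubB, LPS_IFNg and mock, and was not called (edgeR adjusted p = 0.328 and 0.962 in the same comparisons). Of these 2 partners, 1 was called higher and 0 lower in both comparisons, where 26.2% and 26.3% of all genes were called higher. A list of 2 genes is too short to set against those shares.

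Among the FOS genes, Fos (chromosome 12, 85473890 to 85477274, plus strand), the founding member, had 97.6 and 63.6 CPM in LPS_IFNg_TubB against 19.1 and 22.8 CPM in LPS_IFNg. It had 86.5 and 66.2 CPM in TubB against 17.4 and 25.8 CPM in mock. Both groups with the compound label lay wholly above both groups without it, with replicate 1 above replicate 2 in LPS_IFNg_TubB and TubB and below it in LPS_IFNg and mock. Its fold change on the log2 scale was 1.93 ± 0.28 (edgeR adjusted p = 0.000632) with the stimulus label and 1.81 ± 0.27 (adjusted p = 0.000756) without it.

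Fosl1 (chromosome 19, 5447698 to 5455938, plus strand), which encodes FRA-1, had 21.8 and 17.8 CPM in LPS_IFNg_TubB and 6.255 and 5.44 CPM in LPS_IFNg, and 18.0 and 19.7 CPM in TubB and 6.56 and 9.95 CPM in mock. Its log2 fold change was 1.75 ± 0.25 (edgeR adjusted p = 1.12e-06) between LPS_IFNg_TubB and LPS_IFNg and 1.20 ± 0.23 (adjusted p = 6.88e-05) between TubB and mock. Fosl1 overlaps Ccdc85b in the annotation, and without strand the reads of the overlap cannot be told apart.

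Fosl2 (chromosome 5, 32136472 to 32157840, plus strand), which encodes FRA-2, stood apart from the other FOS genes. It had 113 and 109 CPM in LPS_IFNg_TubB against 115 and 120.3 CPM in LPS_IFNg, and 111 and 107 CPM in TubB against 115 and 121 CPM in mock. These values span a narrow range, with the libraries labelled with the compound slightly below the others. The log2 fold change was -0.09 ± 0.09 (95% interval -0.27 to 0.10, edgeR adjusted p = 0.448) between LPS_IFNg_TubB and LPS_IFNg and -0.12 ± 0.09 (-0.30 to 0.06, adjusted p = 0.273) between TubB and mock. These intervals leave no room for a change near that of Jun, the member with the smallest called difference.

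Fosb (chromosome 7, 19302696 to 19310118, minus strand) was close to the limit of detection. It had 21 and 24 counts in LPS_IFNg_TubB against 1 and 2 in LPS_IFNg, and 14 and 22 in TubB against 0 and 1 in mock. As a ratio of CPM this was 17.2 (95% counting interval 5.53 to 86.7) between LPS_IFNg_TubB and LPS_IFNg and 40.6 (6.83 to 1650) between TubB and mock. The ratio rests on single reads: without mock replicate 1 it was 19.9 (3.36 to 809), without mock replicate 2 it was at least 6.87, taking a floor of 3 counts over the group, and without LPS_IFNg replicate 2 it was 26.3 (4.48 to 1060). The edgeR adjusted p was 5.74e-05 and 5.59e-05 in these comparisons. Fosb passed the filter only through the libraries in which it was high, so these values carry no weight as a test.

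Among the JUN genes, Junb (chromosome 8, 84976909 to 84978748, minus strand) had 653 and 512 CPM in LPS_IFNg_TubB against 159 and 149.7 CPM in LPS_IFNg. It had 701 and 524 CPM in TubB against 159 and 154 CPM in mock. Its replicates without the compound label were nearly equal, and those with it were all well above them. Its log2 fold change was 1.91 ± 0.17 (edgeR adjusted p = 8.58e-05) with the stimulus label and 1.96 ± 0.17 (adjusted p = 6.93e-05) without it. Jun (chromosome 4, 95049036 to 95052222, minus strand), the activating partner of most FOS pairs, moved far less. It had 251 and 198 CPM in LPS_IFNg_TubB against 159.5 and 171 CPM in LPS_IFNg, and 238 and 207 CPM in TubB against 155.5 and 171 CPM in mock, so the groups did not overlap although 198 and 171 are close. The log2 fold change was 0.44 ± 0.10 in both comparisons (edgeR adjusted p = 0.000972 with the stimulus label and 0.000724 without it).

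Jund (chromosome 8, 70697739 to 70700616, plus strand) had 0 counts in each of the 8 libraries. The assembly holds 1 numbered copy of Jund on another scaffold, and reads that map to several places were left out under the counting defaults. Whether this left Jund at 0 was not tested. The other genes of the lists used here that have numbered copies were mixed. Ier3, with 2, and Mapk14, with 1, had counts in every library. Egr2, with 1, had 1 count in TubB replicate 2 and none elsewhere, and Mpo, with 1, had 0 counts. The 0 is therefore read here as neither a level nor an upper limit for Jund.

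**Figure D2:**
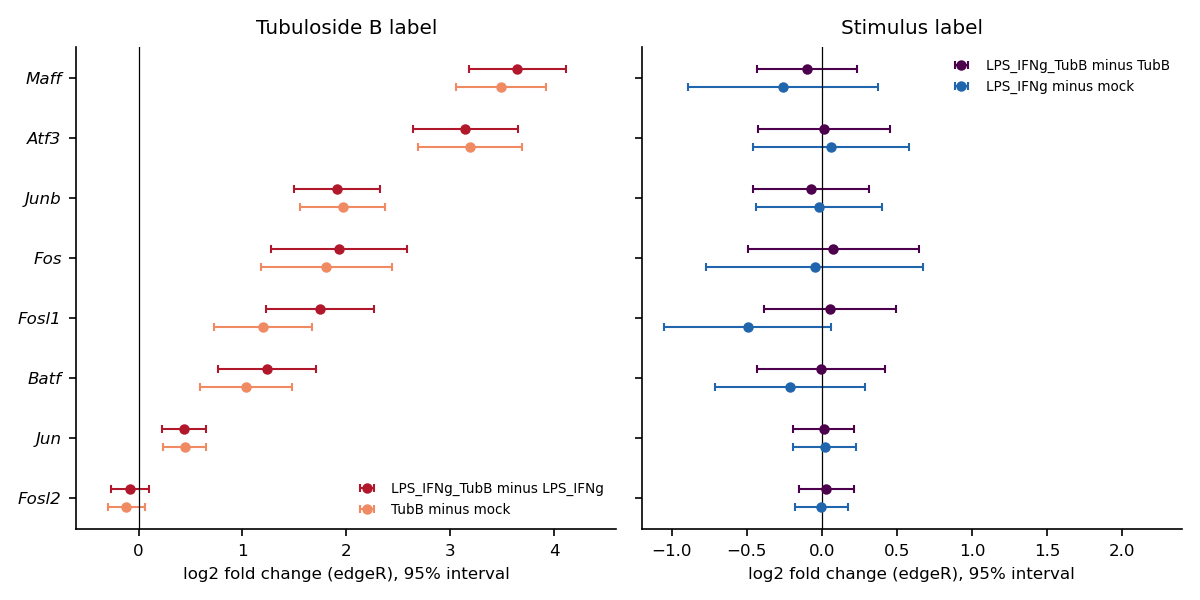
Log2 fold changes of the AP-1 genes with 95% intervals from edgeR, for the comparisons by Tubuloside B label (left) and by stimulus label (right), with the first-named group over the second. Every gene drawn on the left lies above 0 except Fosl2, and every interval on the right includes 0; Fosb is left out because its counts were near 0 in LPS_IFNg and mock, and Jund because it had no counts.

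The comparisons by stimulus label asked what lipopolysaccharide with interferon-γ did with and without the compound, as labelled. None of the 9 members was called between LPS_IFNg_TubB and TubB or between LPS_IFNg and mock, and 0% of all genes were called in either comparison. At an unadjusted p under 0.05, edgeR gave 0 members in each, and 269 and 247 of all genes. Both fall short of a 0.05 share of the 11081 genes tested. The fitted spread may thus be wide for these comparisons, and a lack of calls does not show equal levels. DESeq2, limma-voom and limma on the deposited rlog values called 0 members as well. The libraries did not overlap for 1 of 9 members (Fosb) between LPS_IFNg_TubB and TubB and for 3 of 9 (Fosb, Fosl1 and Batf) between LPS_IFNg and mock, beside 26.8% and 30.6% of all genes. Between LPS_IFNg_TubB and TubB, the log2 differences ran from -0.10 (Maff) to 0.59 (Fosb), and for Jun the interval was -0.19 to 0.22. Between LPS_IFNg and mock, Fosl1 differed by -0.49 (95% interval -1.05 to 0.06, edgeR unadjusted p = 0.0809) and Atf3 by 0.06 (-0.46 to 0.58). The intervals of Fosl2 were the narrowest, at -0.15 to 0.21 and -0.18 to 0.17, and those of Fosb the widest, at -0.43 to 1.60 and -1.56 to 4.70. The interaction, which compares the compound's difference with and without the stimulus label, called 0 of 9 members and 0% of all genes. At an unadjusted p under 0.05 it gave 0 members and 277 of all genes, and its largest value among the better counted members was 0.55 for Fosl1 (-0.17 to 1.26).

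Promoter sequences are shown for the members whose responses span the range: Maff and Atf3 with the widest differences among well counted members, Fos between, Jun with a small one and Fosl2 with none called. Each is the 250 bases before a RefSeq transcript start (GRCm38.p6), 5′ to 3′ on the gene's strand, with capitals marking TGACGTCA, the CRE, with at most 1 mismatch.
Atf3, chr1:191183334-191183583, minus strand: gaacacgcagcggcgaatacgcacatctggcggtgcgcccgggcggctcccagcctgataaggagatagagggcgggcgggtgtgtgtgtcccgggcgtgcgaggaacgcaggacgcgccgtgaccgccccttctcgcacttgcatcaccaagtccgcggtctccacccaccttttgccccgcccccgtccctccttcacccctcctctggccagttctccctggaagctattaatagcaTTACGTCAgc
Maff, chr15:79347270-79347519, plus strand: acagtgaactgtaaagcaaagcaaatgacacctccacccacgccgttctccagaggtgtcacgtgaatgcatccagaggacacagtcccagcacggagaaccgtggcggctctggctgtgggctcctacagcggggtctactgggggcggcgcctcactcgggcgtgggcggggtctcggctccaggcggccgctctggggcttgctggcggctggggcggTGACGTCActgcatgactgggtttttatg
Fos, chr12:85473640-85473889, plus strand: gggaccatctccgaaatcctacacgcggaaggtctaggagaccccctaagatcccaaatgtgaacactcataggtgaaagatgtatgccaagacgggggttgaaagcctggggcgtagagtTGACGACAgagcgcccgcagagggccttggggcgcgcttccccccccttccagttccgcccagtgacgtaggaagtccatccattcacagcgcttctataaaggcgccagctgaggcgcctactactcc
Jun, chr4:95052223-95052472, minus strand: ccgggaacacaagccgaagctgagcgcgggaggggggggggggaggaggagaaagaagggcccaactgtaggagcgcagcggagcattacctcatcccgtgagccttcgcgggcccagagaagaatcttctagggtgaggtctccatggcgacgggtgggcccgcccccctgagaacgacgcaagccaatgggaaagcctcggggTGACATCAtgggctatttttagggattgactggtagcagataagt
Fosl2, chr5:32136222-32136471, plus strand: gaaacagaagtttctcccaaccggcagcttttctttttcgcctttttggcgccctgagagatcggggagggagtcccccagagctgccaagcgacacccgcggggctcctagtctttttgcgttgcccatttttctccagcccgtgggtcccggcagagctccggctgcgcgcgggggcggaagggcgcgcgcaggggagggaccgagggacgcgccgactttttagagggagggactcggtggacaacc
Of the 10 members, 9 had a promoter in the RefSeq table, Fosl1 being the one without, and Maff had 3 starts, which made 11 windows. The exact CRE was in 1 of 11 windows, the printed Maff promoter at 29 to 22 bases before the start, and in 1.55% of 32851 promoter windows of all genes. With at most 1 mismatch it was in 5 of 11 windows, of 4 members, and in 10.6% of all windows. Junb, Batf and Fosb, which were also called higher and are not printed, had no match, nor had Fosl2 and Jund. The Maff window directly before the gene start given above (chr15:79346371-79346620) had none either, so presence of a match did not follow the calls. The matches were TTACGTCA at 10 to 3 bases before the Atf3 start, TGACATCA at 45 to 38 bases before the Jun start and again at 45 to 38 bases before another Maff start, and TGACGACA at 129 to 122 bases before the Fos start. Jun is known to carry an AP-1-like element close to its start, through which JUN acts on its own gene. The TRE, TGACTCA, was in 0 of 11 windows and in 4.46% of all. The κB motif, bound by NF-κB, was in 4 of 11 windows, of Fosl2, Fosb, Fos and Maff, and in 3.9% of all, and on the printed Fosl2 promoter 2 overlapping κB matches lay within 182 to 172 bases before the start. The core of the interferon element ISRE was in the Fosl2 window, on the opposite strand, and in 2.98% of all, while the interferon-γ element TTCNNNGAA (7.02% of all) and the CArG box bound by SRF (1.47%) were in 0 of 11. All were searched on both strands, the exact CRE counting also under the looser search, and a match is a run of letters and not a measured binding site. Only the 250 bases before each start were searched, so an absence here says nothing of elements further upstream or within the gene.

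Per length of summed exons, the family's summed level was higher in every library labelled with the compound than in any other, and its makeup differed. The 9 members summed to 984 and 796 CPM per kb in LPS_IFNg_TubB and 1026 and 776 in TubB, against 220.2 and 228 in LPS_IFNg and 219 and 234 in mock. Atf3 made up 44.8% ± 0.527 of this sum in LPS_IFNg_TubB and 43.7% ± 1.28 in TubB, against 20.1% ± 0.937 in LPS_IFNg and 19.0% ± 0.867 in mock (SD, n = 2 each). Jun made up 7.91% in LPS_IFNg_TubB and 7.83% in TubB, against 23.1% in LPS_IFNg and 22.6% in mock. Fosl2 made up 2.15% and 2.09% of the sum in LPS_IFNg_TubB and TubB, against 8.94% and 8.89% in LPS_IFNg and mock. Junb held a near constant share, at 35.5% ± 0.817, 36.9% ± 0.296, 37.4% ± 2.5 and 37.7% ± 2.74 in the same order. The shares are bound to add to the whole, so a larger Atf3 share lowers the sum of the others, though not each of them. Maff made up 1.58% and 1.68% in LPS_IFNg_TubB and TubB, against 0.495% and 0.586% in LPS_IFNg and mock. The missing Jund counts are outside the sum.

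**Figure D3:**
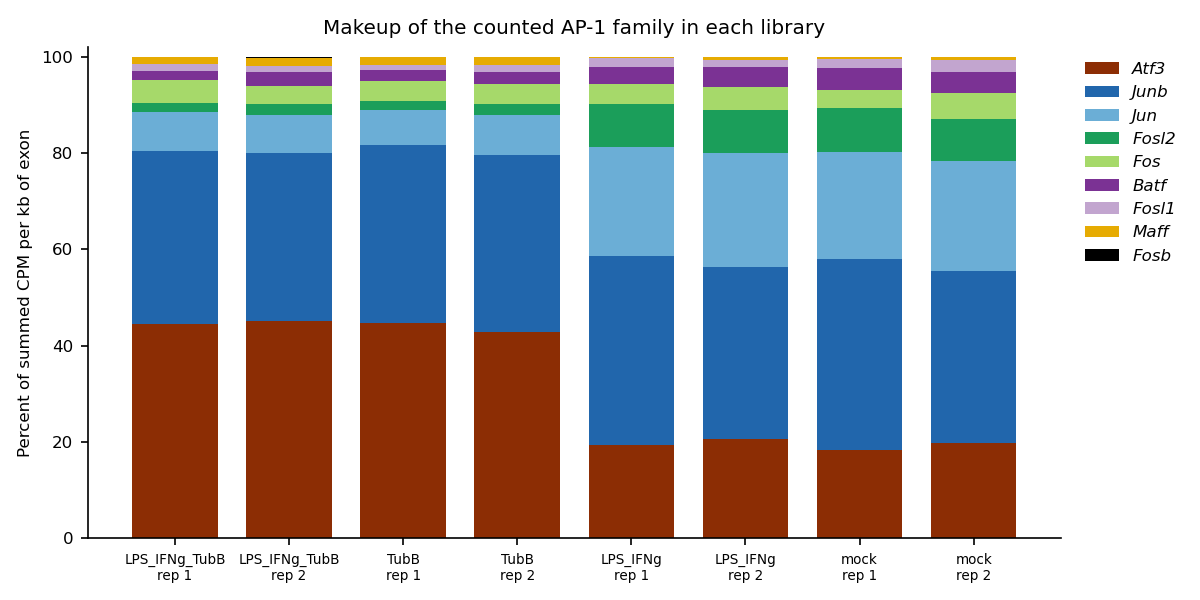
Share of the summed AP-1 level, in percent of CPM per kb of summed exon length, held by each gene in each of the 8 libraries, in the order LPS_IFNg_TubB, TubB, LPS_IFNg and mock. Atf3 held 44.8% and 43.7% in LPS_IFNg_TubB and TubB, against 20.1% and 19.0% in LPS_IFNg and mock.

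The order of levels per length changed with the compound label. In LPS_IFNg_TubB the order was Atf3 (398 CPM per kb), Junb (317), Jun (70.5), Fos (38.2), Batf (20.9), Fosl2 (18.9), Maff (13.98), Fosl1 (11.6) and Fosb (1.14), with Batf and Fosl2 overlapping between libraries. TubB had the same order, with Atf3 and Junb overlapping. In LPS_IFNg the order was Junb (83.8), Jun (51.9), Atf3 (44.99), Fosl2 (20.1), Fos (9.92), Batf (8.89), Fosl1 (3.43), Maff (1.12) and Fosb (0.0655), and mock differed from it in the place of Fos and Batf, whose libraries overlapped in both. Per length, the dominant counted JUN gene was thus Junb everywhere, but the gap to Jun was wider with the compound label. In CPM, Jun and Junb averaged 165 and 154 in LPS_IFNg and 163 and 157 in mock. Junb over Jun, per length, was 4.51 and 4.47 in LPS_IFNg_TubB and 5.10 and 4.39 in TubB, against 1.725 and 1.515 in LPS_IFNg and 1.78 and 1.56 in mock. Fos over Fosl2, per length, was 2.41 and 1.62 in LPS_IFNg_TubB and 2.165 and 1.73 in TubB, against 0.462 and 0.526 in LPS_IFNg and 0.423 and 0.5925 in mock. Per length, Fos was thus the higher of the pair in every library with the compound label and Fosl2 in every library without it. This rests on the summed exon lengths, 2109 bases for Fos and 5864 for Fosl2, since in CPM Fosl2 was above Fos in every library.

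The genes around AP-1 were taken by role. Over all genes, 26.2% were called higher and 25% lower between LPS_IFNg_TubB and LPS_IFNg, and 26.3% and 24.9% between TubB and mock. Among 18 other immediate early genes, 15 were tested, and 11 were called higher and 1 lower in each comparison by compound label, with a median log2 fold change of 2.05 between LPS_IFNg_TubB and LPS_IFNg and 1.91 between TubB and mock. The lower call was Nr4a2 in the first and Egr3 in the second, both named after their values were seen. Both passed the filter on low counts only through libraries without the compound label, in which they were higher. Their calls therefore add nothing to these counts. Each had at most 22 counts in any library, DESeq2 called 0 lower in either comparison and limma-voom 0 in the second, and 0 were called lower between LPS_IFNg_TubB and LPS_IFNg without LPS_IFNg_TubB replicate 1, LPS_IFNg replicate 1 or LPS_IFNg replicate 2. Between TubB and mock, 0 were called lower with no count filter or without either TubB, either LPS_IFNg or either mock library. Dusp1, a phosphatase that switches MAP kinases off, averaged 153 ± 35.6 CPM in LPS_IFNg_TubB against 10.6 ± 1.30 CPM in LPS_IFNg, and 150.1 ± 34.6 CPM in TubB against 9.1 ± 1.82 CPM in mock. Egr1, a zinc finger transcription factor, averaged 354 ± 101 against 29.4 ± 2.89 CPM and 347 ± 96.7 against 30.2 ± 6.62 CPM in the same pairs. Dusp1 was higher by 3.83 ± 0.27 and 4.03 ± 0.27 and Egr1 by 3.58 ± 0.38 and 3.51 ± 0.37 on the log2 scale.

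Of 21 further bZIP genes that pair or compete with AP-1, 18 were tested. Between LPS_IFNg_TubB and LPS_IFNg, 8 were called higher and 1 lower, with a median log2 fold change of 0.18. Between TubB and mock, 9 were called higher and 2 lower, with a median of 0.22. Of all genes, 51.2% were called in each comparison, 26.2% and 26.3% higher and 25% and 24.9% lower. The number called in the list is not far from the first share. By direction, its higher calls lay above the shares of all genes and its lower calls below them. Batf2, a BATF relative, passed the filter only through the libraries in which it was high, so its call adds nothing to these counts. It averaged 270.0 ± 16.2 CPM in LPS_IFNg_TubB and 253 ± 15.2 CPM in TubB, and had 1 count over LPS_IFNg and 5 counts over mock. As a ratio of CPM, TubB over mock was 706 (95% counting interval 302 to 2180) and LPS_IFNg_TubB over LPS_IFNg was 3210 (575 to 127000), which became at least 526 without LPS_IFNg replicate 1 and 1630 (292 to 64400) without replicate 2. Crem, a CRE-binding factor, averaged 58.6 ± 1.27 CPM in LPS_IFNg_TubB against 7.53 ± 0.878 CPM in LPS_IFNg, and 58.4 ± 5.96 CPM in TubB against 7.88 ± 0.284 CPM in mock.

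Upstream, 20 of 21 kinases and SRF-side regulators were tested. Between LPS_IFNg_TubB and LPS_IFNg, 9 were called higher and 2 lower, and between TubB and mock 5 higher and 2 lower, with medians of 0.09 and 0.06. Of all genes, 51.2% were called in each comparison, so the list as a whole was near that share in the first and below it in the second. By direction, its higher calls lay above the 26.2% of all genes in the first and near the 26.3% in the second. Its lower calls lay below the 25% and 24.9% of all genes. Map2k1, the kinase MEK1, averaged 299 ± 38.5 CPM in LPS_IFNg_TubB against 137 ± 2.94 CPM in LPS_IFNg, and 314 ± 55.95 CPM in TubB against 136 ± 1.54 CPM in mock. Mef2c, a transcription factor that acts on the Jun promoter, was lower, with 25.1 ± 1.02 against 57.1 ± 2.93 CPM and 22.9 ± 2.60 against 60.1 ± 2.91 CPM in the same pairs. Map3k8, the kinase TPL2 that carries Toll-like receptor signals to MEK, was higher by 0.64 ± 0.20 in LPS_IFNg_TubB than in LPS_IFNg and by 0.97 ± 0.20 in TubB than in mock. The first of these calls was lost without LPS_IFNg_TubB replicate 1 (edgeR adjusted p = 0.144) or LPS_IFNg replicate 1 (adjusted p = 0.101).

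Factors that set the life of AP-1 messages or proteins went both ways, where 51.2% of all genes were called in each comparison. All 8 genes of a list of message decay factors, most of which act on AU-rich messages, were tested. Of these, 3 were called higher and 4 lower between LPS_IFNg_TubB and LPS_IFNg (median -0.27), and 2 higher and 4 lower between TubB and mock (median -0.25). Besides Zfp36, only Tob1 and Tob2, which are not AU-rich binding proteins, had higher means in both comparisons (named after their values were seen). Zfp36, or tristetraprolin, which marks AU-rich messages for decay and is itself an immediate early gene, averaged 233 ± 24.9 CPM in LPS_IFNg_TubB against 24.4 ± 2.91 CPM in LPS_IFNg, and 238 ± 33.6 CPM in TubB against 24.5 ± 0.872 CPM in mock. Its relative Zfp36l2 was lower by 0.82 ± 0.08 on the log2 scale in both comparisons, and Khsrp, another AU-rich binding protein, was lower by 0.52 ± 0.07 and 0.50 ± 0.07. The list also holds Elavl1, or HuR, known for stabilising such messages, which was among the lower calls, at 112 ± 7.59 against 162 ± 1.02 CPM and 114 ± 4.01 against 155.5 ± 0.218 CPM in the same pairs (named after its values were seen). Of 6 factors of the ligases that degrade JUN, 5 were tested, with 2 called higher and 0 lower between LPS_IFNg_TubB and LPS_IFNg (median 0.22) and 2 higher and 1 lower between TubB and mock (median 0.28). Itch, a ubiquitin ligase of JUN proteins, was higher by 0.64 ± 0.10 and 0.75 ± 0.09. Trib1, a COP1 adaptor, was higher by 0.58 ± 0.20 and 0.66 ± 0.19, and its first call was lost without LPS_IFNg_TubB replicate 1 (edgeR adjusted p = 0.0787) or LPS_IFNg replicate 2 (0.164) and its second without mock replicate 1 (0.0865). Det1 was lower in TubB than in mock by -0.79 ± 0.23, and differed by -0.27 ± 0.23 in the other comparison (adjusted p = 0.342).

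Downstream, 19 of 21 textbook AP-1 targets were tested. Between LPS_IFNg_TubB and LPS_IFNg, 12 were called higher and 2 lower (median 0.96), and between TubB and mock 13 higher and 2 lower (median 1.05). Of all genes, 51.2% were called in each comparison, 26.2% and 26.3% higher. Ptgs2, cyclooxygenase 2, averaged 1756 ± 413 CPM in LPS_IFNg_TubB against 43.99 ± 1.22 CPM in LPS_IFNg, and 1781 ± 599.5 CPM in TubB against 43.7 ± 0.385 CPM in mock. Ccl2, a monocyte chemokine, averaged 4079 ± 342 against 779 ± 39.2 CPM and 4016 ± 488 against 790.0 ± 31.9 CPM in the same pairs. Many of these targets are also driven by NF-κB or interferon signals, and Ptgs2 is also a stimulus marker. Il6 and Il1b, also on the list, passed the filter only through the libraries in which they were high. In none of these lists was a gene called by stimulus label or in the interaction.

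**Figure D4:**
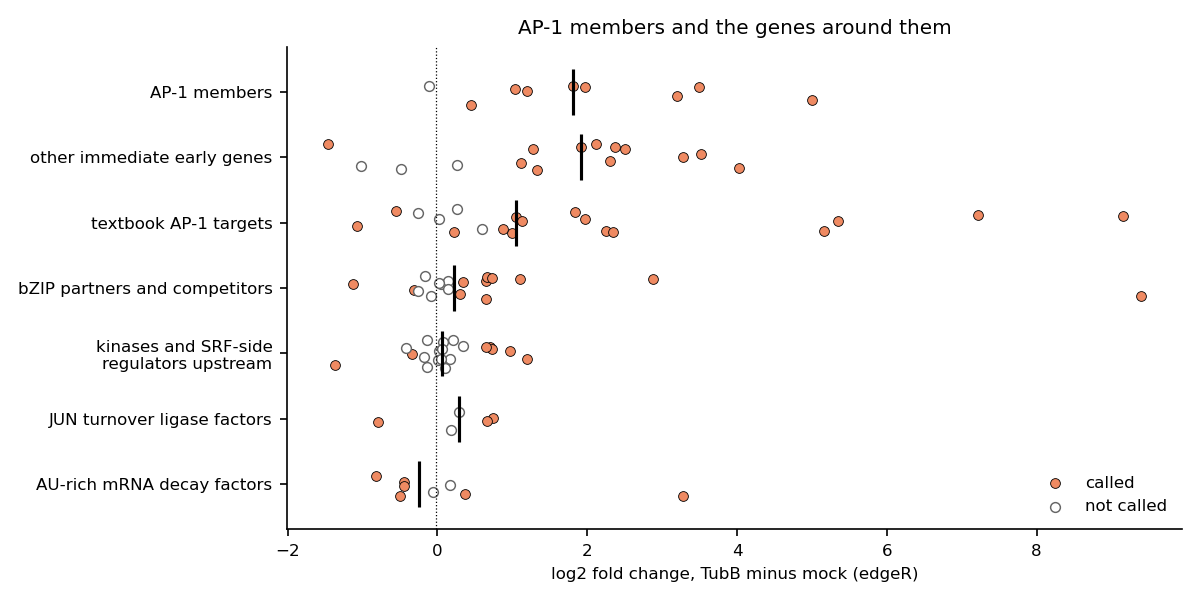
Log2 fold change between TubB and mock for each tested AP-1 gene and each tested gene of the lists around it, 1 point per gene, filled where called by edgeR, with a bar at the median of the list; points beyond 4 include genes near 0 counts in mock, such as Fosb and Batf2, whose fitted values are no bound. The AP-1 members have a median of 1.81 and the other immediate early genes 1.91, beside 0.22 for bZIP partners and 0.06 for upstream regulators.

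Across the 8 libraries, the members other than Fosl2 varied together, with Pearson's r of log2 CPM between 0.871 and 0.996, whereas Fosl2 had r between -0.788 and -0.549 with them. The libraries fall into 2 sets by compound label, so these values describe that split and carry no test. Among 8574 named genes outside the family whose mean reached 3 log2 CPM, the closest to Atf3 was Il1rn, the interleukin 1 receptor antagonist (r = 0.9998), with 916 genes at r above 0.98. The closest to Junb was Sppl2a (0.9992), to Maff Plek (0.999), to Fos Cd80 (0.9971), to Fosb Serpinb9 (0.9964), to Batf Actr1a (0.9963) and to Jun Pheta1 (0.993). Jun and Fosl1 had only 14 and 20 genes above 0.98, and Fosl2, closest to Ndufb3 (0.972), had 0.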

How the data were processed

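Polyadenylated RNA of RAW264.7 cells was sequenced for 4 labelled groups with 2 libraries each. The authors deposited raw read counts per gene and, in another column, a gene length in bases (summed exons), per the file headers. Reads were aligned with STAR 2.7.0, per the submitters' processing notes, and counted over exons by gene with featureCounts 2.0.1 as read pairs against RefSeq GRCm38.p6, with no option for strand or multi-mapping, per the file headers. The authors also deposited regularised log2 values (rlog), used here as an alternative and to check the column numbering.

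From the counts, edgeR 4.0.16 (R 4.3.3) was run with TMM factors, filterByExpr by group (minimum count 10, minimum total 15), robust quasi-likelihood fits of all 8 libraries on the group, and Benjamini-Hochberg adjustment over all 11081 genes kept, called under 0.05. CPM are counts relative to the sum over the genes kept, scaled by TMM factors, and per-length levels divide by the summed exon length. Of 42454 rows, 18955 held counts. The fit was tested on simulated data. The 5 contrasts are the compound with and without the stimulus, the stimulus with and without the compound, and their interaction. Ratios of sparse genes have exact 95% intervals that cover counting error only, because reads were not tied to single molecules by identifiers.

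The members and gene lists were chosen with earlier results of these data known. Besides all members, up to 3 called genes per list with the largest difference between TubB and mock and a mean of at least 3 log2 CPM were named. Nos2, Ptgs2 and Il6 were named as stimulus markers, and 1 most correlated gene per member. A few genes that this rule names are not reported here. As alternatives, RLE replaced TMM factors, the count filter was dropped or set to 1 CPM in 2 libraries, and only the groups compared were fitted. Further ones blocked on replicate number, used DESeq2 1.42.0, limma-voom or limma 3.58.1 (rlog values), asked for a 2-fold change, or omitted 1 library at a time.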

Additional observations from a re-analysis of the deposited data

How the results depend on the processing

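The counts of members called, 8 in each comparison by Tubuloside B label and 0 in each by stimulus label and in the interaction, stayed the same under the other settings run, leaving out any 1 library included, except that the 2-fold minimum called 7, without Jun. That minimum lowered the number of all genes called to 1796 between LPS_IFNg_TubB and LPS_IFNg (1105 higher, 691 lower) and to 1729 between TubB and mock (1103 higher, 626 lower), against 5671 in each with no minimum. Leaving out 1 library gave 4596 to 5857 and 4535 to 5752 genes. No setting called any gene by stimulus label or in the interaction. The replicate numbers are not tied to cultures or days in the labels, so whether they mark pairs is not known. Libraries of the same number under different stimulus labels lay closer than replicates of a group, as given below, and the main fit leaves this out. With the replicate block, 5753 and 5729 genes and 8 and 8 members were called by compound label, and 0 in the other contrasts, so it changed no member's call. Limma on the rlog values, which shrink sparse and variable genes, gave smaller log2 differences, such as 2.04 for Atf3 and 2.06 for Maff between LPS_IFNg_TubB and LPS_IFNg. Calls of the ligase factors ranged from 1 to 2 and from 2 to 4 over the settings. The interaction was not run on the compared groups alone, since it uses all groups. Depth limits Fosb, and the counting may limit Jund.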

Other observations

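Fos and Batf lie 209 kb apart on chromosome 12, with 4 annotated genes between them, among them Jdp2 (85598656 to 85639878, plus strand), a bZIP repressor that pairs with JUN. Jdp2 was chosen for its position after its values were seen. It had 67.0 and 66.6 CPM in LPS_IFNg_TubB against 69.5 and 75.9 CPM in LPS_IFNg, and 64.4 and 63.95 CPM in TubB against 72.9 and 70.7 CPM in mock. Its log2 fold change was -0.12 ± 0.11 (edgeR adjusted p = 0.358) between LPS_IFNg_TubB and LPS_IFNg and -0.16 ± 0.11 (adjusted p = 0.203) between TubB and mock, while both its neighbours in the family were called higher.

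Libraries with the same replicate number under different stimulus labels lay closer than the replicates of a group. The mean chi-square per gene of their counts was 1.95 and 2.34 for LPS_IFNg_TubB with TubB (replicates 1 and 2) and 1.98 and 1.95 for LPS_IFNg with mock. Between the replicates of a group it was 3.46 in LPS_IFNg_TubB, 5.33 in TubB, 2.62 in LPS_IFNg and 2.9 in mock. Among the members, the log2 difference of replicate 1 from replicate 2 was 0.61 for Fos, 0.34 for Jun and 0.35 for Junb in LPS_IFNg_TubB and 0.38, 0.20 and 0.42 in TubB. It had opposite signs in the same groups for Batf (-0.25 and 0.30) and Fosl1 (0.28 and -0.13).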
